A study of Mus musculus with 4 samples.

Results

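Manf, Cdnf, Creld1 and Creld2 encode small proteins of the endoplasmic reticulum (ER), most of them secreted, and they were followed here across the cell classes of mouse cortex and hippocampus. The 4 genes were taken by symbol from 32286 counted features, a choice made with earlier results of these data known. Each symbol matched 1 feature. The samples were sorted nuclei of cortex and hippocampus of 5-week-old mice, read by droplet single-nucleus RNA sequencing, with 1 mouse per library and 2 libraries for each of 2 labels. Mice labelled Sel1L flox/flox carried the floxed Sel1L alleles. Mice labelled Sel1L Syn-Cre carried the same floxed alleles together with Cre recombinase under the Synapsin I promoter, which is active in neurons. Per the study, SEL1L protein was lost only from some cortical neurons of this line, was nearly gone from CA3 and the dentate gyrus, and was largely kept in CA1, so that the Syn-Cre libraries mix neurons with and without SEL1L.

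SEL1L is the adaptor of the ubiquitin ligase HRD1 in ER-associated degradation, the route by which misfolded proteins leave the ER for the proteasome. When unfolded proteins accumulate, the unfolded protein response is engaged through ATF6, IRE1 with XBP1, and PERK with ATF4, and ER chaperones are transcribed. MANF (mesencephalic astrocyte-derived neurotrophic factor) is an ER-resident protein that binds the chaperone BiP, the product of Hspa5, and that can be secreted and act as a neurotrophic factor. CDNF (cerebral dopamine neurotrophic factor) is its paralog. CRELD2 is a secreted, cysteine-rich ER protein with EGF-like domains that is known as an ER stress-induced gene, and CRELD1 is its membrane-anchored relative, known for a role in heart development.

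The libraries labelled Sel1L flox/flox held 11116 and 7864 nuclei after filtering, and those labelled Sel1L Syn-Cre held 7538 and 6805. Their totals ranged from 66167019 to 100984599 unique molecular identifiers (UMIs, each a counted RNA molecule), with medians of 7244.5 to 8397 UMIs per nucleus, and any 2 libraries shared 10 to 34 barcodes. Counts did not check the labels. Sel1l, the targeted gene, was at 97.1 and 90.0 CPM (counts scaled to equal library totals) in the flox/flox libraries and at 155 and 128 CPM in the Syn-Cre libraries, and whether its 3′ UMIs lie outside the deleted part was not tested. Cre UMIs numbered 409 in flox/flox replicate 1, 0 in flox/flox replicate 2, and 236 and 221 in Syn-Cre replicates 1 and 2. The groups are therefore named by their labels, and the main results are also given without flox/flox replicate 1. Replicate 1 of each label had 44 and 147 UMIs of Xist, which is transcribed in females, and replicate 2 had 110776 and 97525, so the replicate number and sex cannot be told apart. Xist separated no label from the other.

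The members lie on different chromosomes. In GRCm38 (GENCODE vM21), Cdnf lies at chr2:3513030-3526376 on the plus strand, Creld1 at chr6:113483297-113493343 on the plus strand, Manf at chr9:106838312-106891979 on the minus strand, and Creld2 at chr15:88819646-88826683 on the plus strand. The annotated Manf gene spans 53668 bp and overlaps Dcaf1, Gm37612, Rbm15b and 4930524O07Rik, whereas the RefSeq gene spans 3186 bp. Creld2 and Alg12, a mannosyltransferase of N-glycan synthesis, start 328 bp apart and are transcribed away from each other. Cdnf and Hspa14 start 216 bp apart in the same arrangement.

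The sequence between the Creld2 and Alg12 starts is shown because it holds the one ER stress response element (ERSE) found in the member promoters. ERSE is the bipartite site of ATF6 and NF-Y, searched here as CCAAT, 9 bases of any kind and CCACG on either strand. The 250 bases before the RefSeq start of Creld2 (GRCm38.p6, chr15:88819396-88819645, plus strand, 66.0% G and C) are given with the ERSE, which reads on the minus strand, in capitals.
Creld2: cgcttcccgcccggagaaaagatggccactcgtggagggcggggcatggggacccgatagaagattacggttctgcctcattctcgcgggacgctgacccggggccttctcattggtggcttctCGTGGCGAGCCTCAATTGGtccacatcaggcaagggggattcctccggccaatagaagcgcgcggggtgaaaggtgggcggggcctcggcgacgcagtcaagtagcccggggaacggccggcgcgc
The ERSE lies 117 bases before the Creld2 start and 211 bases before the Alg12 start. It was found in 39 of 32851 RefSeq promoters of the same length (0.119%). Promoters were given for 3 of the 4 members, Creld2, Creld1 and Cdnf, with no entry for Manf, and neither Creld1 nor Cdnf had an ERSE. A fixed list of ATF6 and XBP1 target genes held 28 genes, mostly ER chaperones and degradation factors. Of its 26 genes with a promoter entry, 8 had the same motif, counted by gene, as a gene can have more than 1 promoter. The ERSE of Creld2 is set beside those of list genes, each read 5′ to 3′ on the strand that bears it, with the fixed letters in capitals.
Creld2 (chr15:88819520-88819538, minus strand): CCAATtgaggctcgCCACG
Hspa5 (chr2:34772025-34772043, plus strand): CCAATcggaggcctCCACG
Hsp90b1 (chr10:86705638-86705656, minus strand): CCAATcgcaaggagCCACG
Hsp90b1 (chr10:86705533-86705551, plus strand): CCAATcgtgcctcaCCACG
Pdia6 (chr12:17266491-17266509, plus strand): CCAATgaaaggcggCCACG
Dnajc3 (chr14:118937827-118937845, plus strand): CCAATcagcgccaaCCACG
Derl3 (chr10:75893242-75893260, minus strand): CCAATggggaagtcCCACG
Further motifs were searched on both strands. ERSE-II (ATTGG, 1 base of any kind and CCACG, 0.0365% of promoters) and the UPRE core (GACGTGG, the XBP1 site, 2.42%) were in none of these 3 promoters. The ATF4 site (TGATG, 1 base of any kind and AA, 3.97%) was in that of Cdnf, where it is shared with Hspa14. In a list of 17 ATF4 targets, 6 of the 15 genes with a promoter entry had the ATF4 site and 0 had an ERSE. A match describes letters and not binding.

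Before any class was separated, Manf stood at 52.2 and 65.7 CPM of all UMIs in the flox/flox libraries and at 104 and 92.9 CPM in the Syn-Cre libraries. Creld2 stood at 4.08 and 3.23 CPM against 10.1 and 7.93 CPM. For both genes each Syn-Cre library was above both flox/flox libraries. Creld1 was at 30.1 and 30.9 CPM against 34.4 and 32.7 CPM, a much narrower gap. Cdnf was at 0.683 and 1.08 CPM against 0.820 and 0.725 CPM, from 48 to 74 UMIs per library, and its groups overlapped.

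Neurons were divided into 14 named subtypes, and glia and vessels into 5 classes. Counts were summed per library and class, so the replicate was the mouse, and the difference of labels was tested by edgeR's quasi-likelihood test with Benjamini-Hochberg adjustment over all genes tested in the class. A gene was called at an adjusted p under 0.05. An exact permutation test of 2 against 2 libraries cannot give a p under 0.333, so none is given for single genes. Levels below are CPM scaled by TMM (trimmed mean of M values), and a fold change is Syn-Cre over flox/flox.

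**Figure D1:**
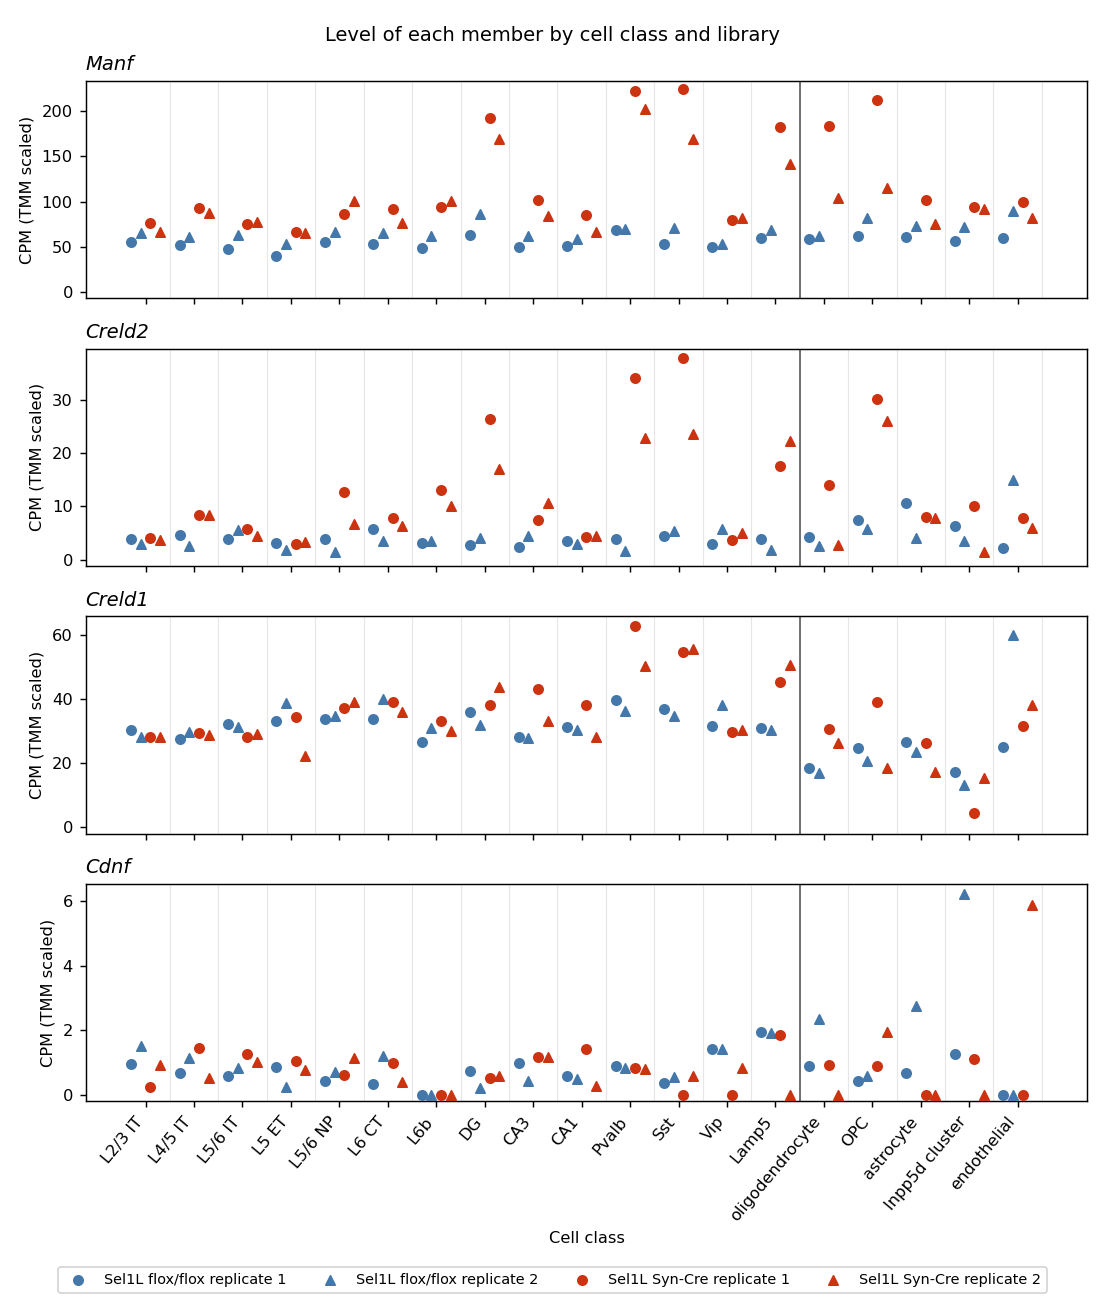
Level of each member (CPM, TMM scaled, linear axis) in 14 neuronal subtypes and, right of the vertical line, 5 glial and vascular classes, with 1 point per library. For Manf both Syn-Cre libraries sit above both flox/flox libraries in 14 of 14 neuronal subtypes, and the widest gaps are in DG, Pvalb, Sst and Lamp5.

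Manf was called higher in the Syn-Cre libraries in 5 of 14 neuronal subtypes, namely L4/5 IT, DG, Pvalb, Sst and Lamp5, and lower in none. DESeq2 also called 5, and 13 of 14 had an unadjusted p under 0.05, as had 11.8% of all tests of all genes summed over the subtypes. Both Syn-Cre libraries were above both flox/flox libraries in 14 of 14 subtypes, an order met by 21.3% of those tests, with the reverse order in 20.9%. Here and for the other members, the subtypes come from the same libraries, so their orders and p-values are not independent of each other. Shares of all tests do not tell how often a single gene meets a rule in many subtypes. For comparison, of all genes tested in either direction edgeR called 1.7% in L4/5 IT, 3.47% in DG, 4.11% in Pvalb, 9.09% in Sst and 0.459% in Lamp5.

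In DG, the granule neurons of the dentate gyrus, Manf was at 63.3 and 86.4 CPM in the flox/flox libraries (426 and 374 UMIs) and at 193 and 169 CPM in the Syn-Cre libraries (735 and 584 UMIs). The groups were far apart, with a log2 fold change of 1.28 ± 0.14 (SE, 95% interval 0.97 to 1.59, edgeR adjusted p = 0.000294). In Pvalb interneurons, the fast-spiking inhibitory cells, the levels were 68.9 and 69.5 CPM against 222 and 203 CPM, and the flox/flox libraries all but coincided. There it was a log2 fold change of 1.62 ± 0.14 (SE, edgeR adjusted p = 6.23e-05). Sst interneurons, which inhibit dendrites, had 53.1 and 70.7 CPM against 224 and 170 CPM. Theirs was the largest fold change of Manf in any class, 1.69 ± 0.17 on the log2 scale (SE, edgeR adjusted p = 2.16e-06). In Lamp5 interneurons the levels were 60.0 and 68.6 CPM against 183 and 142 CPM, with a log2 fold change of 1.34 ± 0.19 (SE, edgeR adjusted p = 0.00656). In L4/5 IT, intratelencephalic neurons of the middle cortical layers, they were 51.9 and 61.2 CPM against 92.8 and 87.6 CPM. That smaller difference of 0.67 ± 0.14 on the log2 scale was also called (SE, edgeR adjusted p = 0.0429), but not without flox/flox replicate 1 (adjusted p = 0.0562), Syn-Cre replicate 1 (adjusted p = 0.0577) or Syn-Cre replicate 2 (adjusted p = 0.110), nor with doublets removed at 2 times the rate. Without flox/flox replicate 1, the library with Cre UMIs, Manf was called in 4 subtypes, at log2 fold changes of 1.07 in DG, 1.61 in Pvalb, 1.48 in Sst and 1.24 in Lamp5, and stood at 0.56 in L4/5 IT. Fits without flox/flox replicate 2 called more genes of any kind in most subtypes, so a count of Manf calls there is no measure of Manf alone.

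The other 9 subtypes were not called, and their log2 fold changes ran from 0.25 ± 0.14 (SE) in L2/3 IT to 0.82 ± 0.21 (SE) in L6b. Their edgeR adjusted p-values were 0.507 in L2/3 IT, 0.308 in L5/6 IT, 0.494 in L5 ET, 0.218 in L5/6 NP, 0.233 in L6 CT, 0.167 in L6b, 0.306 in CA3, 0.519 in CA1 and 0.570 in Vip. These subtypes also had few calls of any gene: 0.171% of genes in L2/3 IT, 0.508% in L5/6 IT, 0.00731% in L5 ET, 0.0265% in L5/6 NP, 0.434% in L6 CT, 0.154% in L6b, 0.0328% in CA3, 0.00777% in CA1 and 0.0268% in Vip. In CA3, the pyramidal neurons that receive the dentate mossy fibres, Manf was at 49.5 and 61.7 CPM against 102 and 83.6 CPM. In CA1 it was at 51.2 and 59.2 CPM against 84.9 and 65.9 CPM. Vip interneurons had 49.7 and 53.2 CPM against 79.7 and 82.2 CPM. L6b, deep cortical neurons, had 48.4 and 62.2 CPM against 93.7 and 100.4 CPM, from 60 to 63 nuclei per library. In each of these subtypes the groups did not overlap, but the gap was narrower than in the 4 subtypes of the largest difference.

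Over all neuron-like nuclei together, Manf was at 53.6 and 65.1 CPM against 101 and 89.5 CPM. The log2 fold change of 0.68 ± 0.12 (SE) was not called by edgeR (adjusted p = 0.0970, and 0.143% of genes were called) and was called by DESeq2 (adjusted p = 8.28e-05). The edgeR value without flox/flox replicate 1 was 0.55 (adjusted p = 0.0804), and edgeR made the call without flox/flox replicate 2 (0.83, adjusted p = 0.0455) and with the replicate number, and so sex, as a block (0.69).

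**Figure D2:**
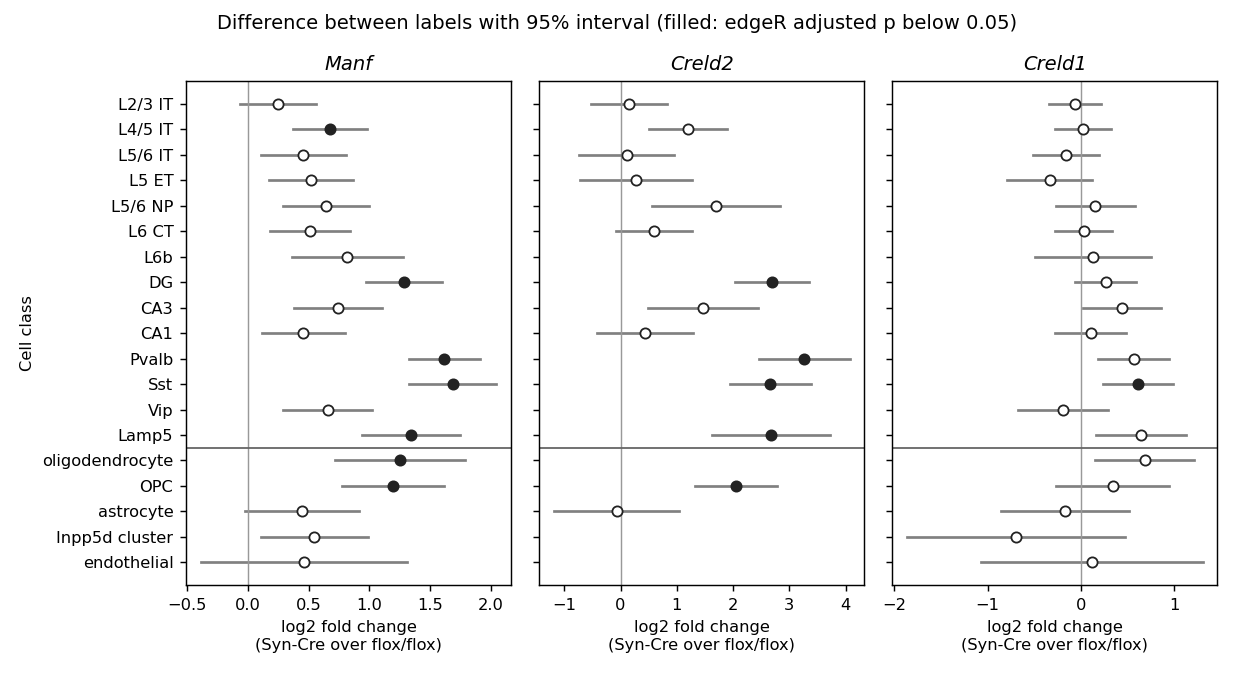
Log2 fold change (Syn-Cre over flox/flox) of Manf, Creld2 and Creld1 in each cell class, with a 95% interval derived from edgeR's test statistic. Filled points were called at an adjusted p under 0.05: 5 neuronal subtypes for Manf, 4 for Creld2 and 1 for Creld1, and below the line 2 glial classes for Manf and 1 for Creld2.

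Creld2 had the largest fold changes of the 4 members. Creld2 was called higher in 4 of the 12 subtypes in which it passed the filter on low counts (DG, Pvalb, Sst and Lamp5) and lower in none. DESeq2 called 3. The filter asks for enough counts in 2 libraries. In Pvalb, Sst and Lamp5, where flox/flox counts were low, Creld2 could pass it through the Syn-Cre libraries alone. The count of 4 of 12 is therefore not independent of the difference itself. In 10 of 14 subtypes the Syn-Cre libraries did not overlap the flox/flox libraries, and all 10 were higher, against the 21.3% of all tests given above. The 10 include L6b, where Creld2 did not pass the filter, while that share covers only genes that passed it.

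In DG, Creld2 had 19 and 18 UMIs in the flox/flox libraries and 101 and 59 in the Syn-Cre libraries, or 2.83 and 4.16 CPM against 26.5 and 17.1 CPM. This was a log2 fold change of 2.69 ± 0.30 (SE, 95% interval 2.03 to 3.35, edgeR adjusted p = 0.000321). In Pvalb interneurons 13 and 4 UMIs stood against 82 and 57, or 3.83 and 1.68 CPM against 34.2 and 22.8 CPM. The log2 fold change of 3.26 ± 0.37 (SE, edgeR adjusted p = 0.000400) was the largest of any member in any class. Sst interneurons had 12 and 10 UMIs against 70 and 39, or 4.39 and 5.44 CPM against 37.8 and 23.5 CPM. That gave a log2 fold change of 2.66 ± 0.34 (SE, edgeR adjusted p = 3.29e-05). Lamp5 interneurons had 6 and 2 UMIs against 19 and 27, with a log2 fold change of 2.67 ± 0.48 (SE, edgeR adjusted p = 0.0291). This last call rests on few UMIs, was lost without Syn-Cre replicate 2 (adjusted p = 0.153), and was not made by DESeq2 (adjusted p = 0.143). Without flox/flox replicate 1, Creld2 was called in 5 subtypes, with log2 fold changes of 2.39 in DG, 4.05 in Pvalb, 2.49 in Sst, 3.32 in Lamp5 and 1.69 in L4/5 IT.

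In L4/5 IT, Creld2 was at 4.55 and 2.60 CPM against 8.45 and 8.33 CPM, and 1.20 ± 0.31 on the log2 scale was not called (SE, edgeR adjusted p = 0.0999). CA3 had 7 and 10 UMIs against 19 and 27, and 1.47 ± 0.44 was not called (SE, adjusted p = 0.459). In CA1, 24 and 12 UMIs stood against 15 and 17, or 3.47 and 2.97 CPM against 4.3 and 4.52 CPM, with a log2 fold change of 0.43 and a 95% interval of -0.42 to 1.28. In Vip interneurons, with 6 and 8 UMIs against 6 and 6, Creld2 did not pass the filter, nor did it in L6b, with 3 and 3 UMIs against 11 and 9. In L2/3 IT the level was 3.91 and 3.03 CPM against 4.02 and 3.76 CPM, and the groups overlapped. Over all neurons Creld2 was at 4.01 and 3.17 CPM against 9.75 and 7.54 CPM, a log2 fold change of 1.26 ± 0.19 (SE) that edgeR did not call (adjusted p = 0.0695) and DESeq2 did (adjusted p = 4.76e-06). It was called by edgeR without flox/flox replicate 1 (1.45, adjusted p = 0.0440) and without Syn-Cre replicate 2 (1.43, adjusted p = 0.0207).

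Creld1 had smaller differences than Creld2 in each class where Creld2 was called. It was called higher in 1 of 14 subtypes, Sst, at 37.0 and 34.8 CPM in the flox/flox libraries against 54.6 and 55.5 CPM in the Syn-Cre libraries (log2 fold change 0.61 ± 0.18, SE, edgeR adjusted p = 0.0381). DESeq2 did not call it, and edgeR lost the call when any 1 library was left out (adjusted p = 0.102 to 0.136). Pvalb had 39.8 and 36.4 CPM against 62.9 and 50.4 CPM, not called (0.57 ± 0.17, SE, adjusted p = 0.101). Lamp5 had 30.9 and 30.5 CPM against 45.3 and 50.5 CPM, not called (0.64 ± 0.22, SE, adjusted p = 0.281). The groups did not overlap in 9 of 14 subtypes, with the Syn-Cre libraries above in 6 and below in 3, against 21.3% above and 20.9% below of all tests. Over all neurons Creld1 was at 32.9 and 32.3 CPM against 35.2 and 32.3 CPM, a log2 fold change of 0.05 with a 95% interval of -0.16 to 0.26.

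Cdnf was close to the limit of detection in every class. Any neuronal subtype held 0 to 14 UMIs of it per library, and it passed the filter in no single class. Over all neurons 59 and 56 UMIs in the flox/flox libraries compared with 52 and 44 in the Syn-Cre libraries, or 0.697 and 0.909 CPM against 0.857 and 0.687 CPM. The log2 fold change of -0.05 had a 95% interval of -0.76 to 0.66. In single subtypes a change of Cdnf was not detectable at this depth.

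The difference between labels was compared between subtypes by the subtype by genotype term, with the library as a block. CA1 was set against DG and CA3 because, per the study, SEL1L protein was largely kept there. The log2 fold change of Manf was larger in DG than in CA1 by 0.86 ± 0.14 (SE, edgeR adjusted p = 0.000149), which DESeq2 did not call (adjusted p = 0.144). Creld2 differed by 2.27 ± 0.48 between DG and CA1 (SE, edgeR adjusted p = 0.00292), and DESeq2 gave it no adjusted p. CA3 and CA1 were not shown to differ, at 0.28 with a 95% interval of -0.05 to 0.61 for Manf (edgeR adjusted p = 0.766) and at 1.05 with an interval of -0.20 to 2.29 for Creld2 (adjusted p = 0.780). Creld1 was called in neither pair. Of all genes tested, the term was called for 2.7% between DG and CA1 and for 0.192% between CA3 and CA1. Without flox/flox replicate 1 both calls were lost, with Manf at 0.70 (adjusted p = 0.0510) and Creld2 at 1.77 (adjusted p = 0.28). Vip was set beside Sst and Pvalb because it had few changes in earlier results of these data, so those differences are a description with no test. For Manf, Sst exceeded Vip by 1.02 ± 0.21 (SE) and Pvalb exceeded Vip by 0.98 ± 0.19 (SE). For Creld2 the same differences were 2.56 ± 0.68 (SE) and 3.20 ± 0.76 (SE).

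Within the flox/flox libraries the mean level of Manf ran from 46.4 CPM in L5 ET to 74.9 CPM in DG over the 14 subtypes, a ratio of 1.61. Each neighbour in the order of all 19 classes overlapped the next, while the ends did not, at 40.1 and 52.8 CPM in L5 ET against 63.3 and 86.4 CPM in DG. In the Syn-Cre libraries the subtype means ran from 66.0 CPM in L5 ET to 213 CPM in Pvalb, a ratio of 3.22. Pvalb, Sst, DG, OPC, Lamp5 and oligodendrocytes formed the upper part of that order, and 16 of 18 neighbouring pairs overlapped. The gap below that part lay between oligodendrocytes (144 CPM) and L6b (97.1 CPM), and a narrow one lay between Vip (80.9 CPM) and L5/6 IT (76.0 CPM). For Creld2 the flox/flox means of the subtypes lay between 2.49 and 4.91 CPM, and the Syn-Cre means between 3.13 CPM in L5 ET and 30.7 CPM in Sst. Creld1 ranged over 28.0 to 38.1 CPM in flox/flox neurons and was lower in oligodendrocytes (17.7 CPM).

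Shares of nuclei with a UMI were compared after every nucleus was thinned to 2000 UMIs, since depth sets such shares. In DG, Manf was seen in 10.5% and 17.5% of nuclei of the flox/flox libraries and in 36% and 31.3% of nuclei of the Syn-Cre libraries. The exact 95% binomial intervals, which cover counting error only, ended at 21.0% for the higher flox/flox library and began at 26.9% for the lower Syn-Cre library. Sst interneurons had 11.6% and 12.7% against 41.7% and 32.9%, and Pvalb interneurons 13.7% and 10.4% against 35.8% and 32.4%. In CA1 the shares were 9.16% and 11.1% against 14.7% and 16.5%, and in Vip 13.6% and 11.3% against 19.1% and 15.0%. Unthinned, the DG shares were 37.8% and 50.4% against 75.2% and 69.9%, at medians of 7125 to 7613.5 UMIs. Nuclei too shallow for thinning were left out, 0 to 11 per library in these subtypes. No class is known to lack Manf. In the Inpp5d cluster, non-neuronal nuclei led by Arhgap45, Inpp5d and Ikzf1 that were left unnamed for their low depth with no fixed marker among their 10 leading genes, the shares were 9.12% and 10.1% against 16.2% and 16.1%, which lie close to those of CA1, at medians of 1745.5 to 1913 UMIs and with 188 to 470 nuclei per library left out as too shallow. Derl3, described below, had 2 and 0 UMIs against 6 and 4 in CA1, and 1 and 0 against 8 and 0 in the Inpp5d cluster. The part of free RNA in these lower shares was not tested. Creld2 was seen in 0.595% and 0.762% of thinned DG nuclei against 4.55% and 4.24%, and in 0.342% and 0.452% of Pvalb nuclei against 6.42% and 4.29%.

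**Figure D3:**
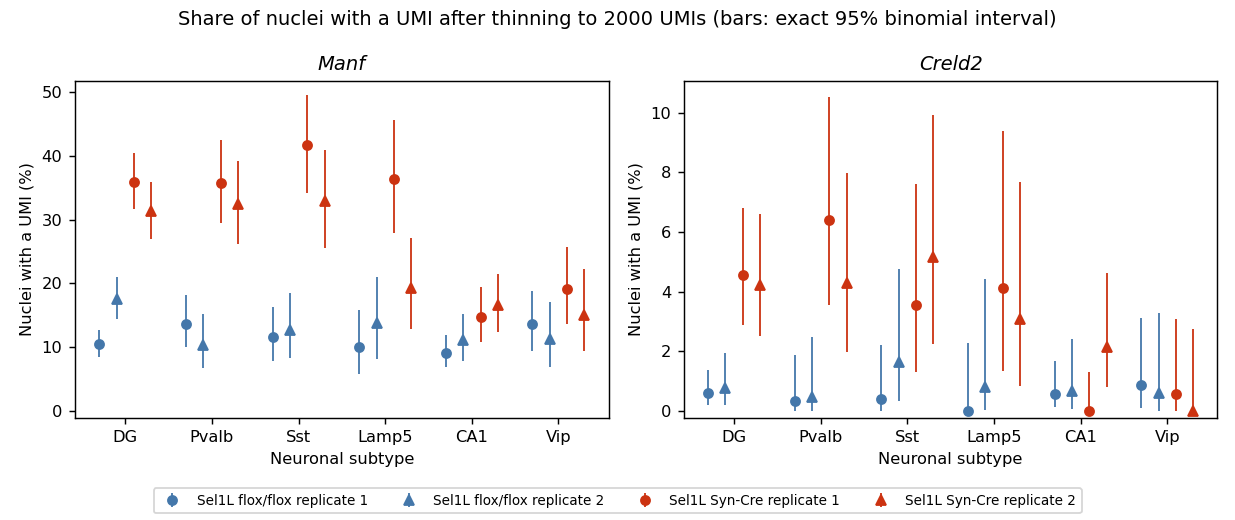
Share of nuclei with at least 1 UMI of Manf or Creld2 after thinning to 2000 UMIs, per library, with exact 95% binomial intervals (counting error only). In DG, Pvalb and Sst the Syn-Cre shares of Manf (31.3% to 41.7%) lie above the flox/flox shares (10.4% to 17.5%), while in Vip the intervals overlap.

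Derl3, an ER degradation factor and ATF6 and XBP1 target, was chosen from earlier results of these data to mark responding nuclei. It had 52 and 40 UMIs in the whole flox/flox libraries and 1108 and 672 in the Syn-Cre libraries. Among all neurons of the Syn-Cre libraries, 12.5% and 8.73% of nuclei had a Derl3 UMI. In those nuclei Manf was at 180 and 171 CPM against 89.4 and 85.0 CPM in nuclei without one, ratios of 2.01 (95% interval 1.89 to 2.13) and 2.02 (1.88 to 2.16) for counting error only. Creld2 was at 28.9 and 20.9 CPM against 6.95 and 6.52 CPM, and Creld1 at 45.0 and 46.4 CPM against 33.9 and 32.2 CPM. In flox/flox neurons, 45 and 34 nuclei had a Derl3 UMI. Ratios there were 0.991 and 1.44 for Manf and 1.45 and 0.737 for Creld1. Nuclei with a Derl3 UMI made up 36.6% and 23.8% of DG but 2.15% and 1.43% of CA1 in the Syn-Cre libraries. Values over all neurons thus also mix subtypes. For Creld1 the Syn-Cre ratios within subtypes were 0.895 and 0.943 in DG, 1.11 and 1.09 in Sst, and 0.862 and 1.47 in Pvalb. Within DG, Sst and Pvalb the 2 levels of Manf lay closer together. In DG of the Syn-Cre libraries Manf was at 204 and 199 CPM with a Derl3 UMI and at 188 and 165 CPM without one, where flox/flox nuclei without one had 61.2 and 84.6 CPM. In Sst the values were 236 and 191 CPM with, 212 and 156 CPM without, and 50.1 and 69.2 CPM in flox/flox nuclei. In Pvalb they were 222 and 229 CPM with, 232 and 190 CPM without, and 65.8 and 68.4 CPM in flox/flox nuclei. The ratios of Manf with to without a Derl3 UMI were 1.08 and 1.21 in DG, 1.11 and 1.22 in Sst, and 0.958 and 1.21 in Pvalb. Lamp5 had ratios of 1.47 (95% interval 1.09 to 1.96) and 1.21 (0.806 to 1.77). For Creld2 the ratios were 1.54 (1.02 to 2.32) and 0.716 in DG, 1.65 (1.02 to 2.76) and 1.07 in Pvalb, and 1.44 and 1.11 in Sst, while Lamp5 of Syn-Cre replicate 2 had 3.90 (1.67 to 8.93). The higher level of Manf in these 3 subtypes was thus not limited to nuclei in which Derl3 was seen, and a nucleus without a Derl3 UMI may still transcribe it.

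**Figure D4:**
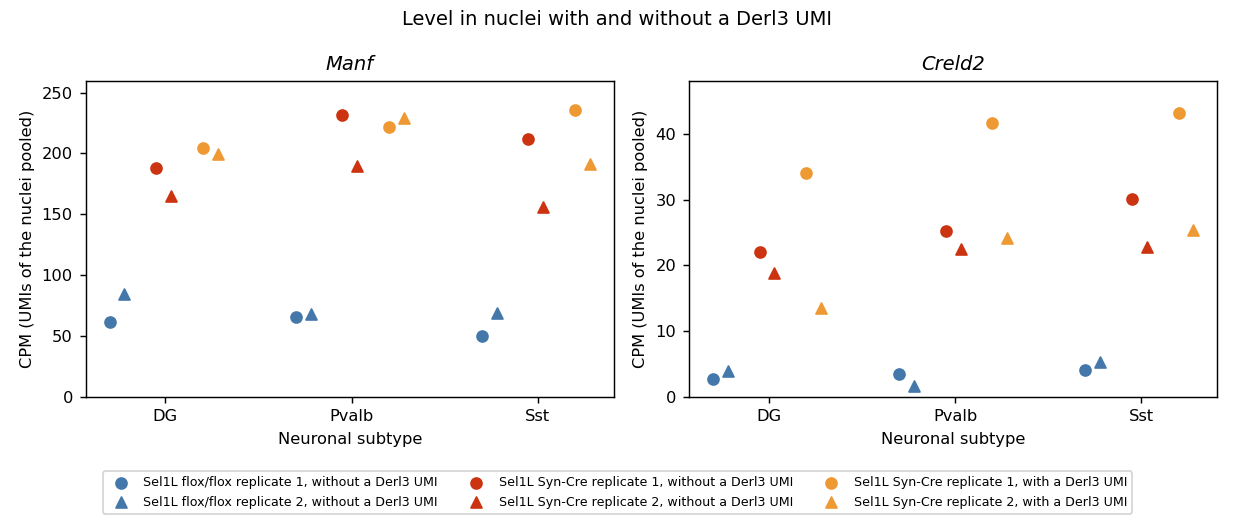
Level of Manf and Creld2 (CPM of pooled UMIs, axis from 0) in DG, Pvalb and Sst nuclei with a Derl3 UMI (orange, Syn-Cre) and without one (red, Syn-Cre; blue, flox/flox), with 1 point per library. Syn-Cre nuclei without a Derl3 UMI have 156 to 232 CPM of Manf, against 50.1 to 84.6 CPM in flox/flox nuclei.

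Cre UMIs were set beside the differences because the Syn-Cre line is mosaic. In the Syn-Cre libraries Cre was at a mean of 27.4 CPM in Pvalb, 16.2 in Sst, 14.5 in OPC, 7.98 in Lamp5, 6.33 in DG and 6.24 in CA3, and at 2.33 in Vip and 0.28 in CA1. Pearson r was taken against log2 of the mean Cre CPM + 1, and Spearman rho against the mean Cre CPM itself. Over the 14 subtypes the log2 fold change of Manf went with Cre at r = 0.90 and rho = 0.88. That of Creld2 did so over 12 subtypes at r = 0.84 and rho = 0.71, and that of Creld1 over 14 at r = 0.78 and rho = 0.64. With glial and vascular classes added the values were r = 0.75 and rho = 0.68 for Manf over 19 classes, r = 0.85 and rho = 0.74 for Creld2 over 14, and r = 0.55 and rho = 0.42 for Creld1 over 19. These describe subtypes that share the same 4 libraries. CA3 lay below DG in fold change at about the same Cre level, and L5/6 NP, at 0.290 CPM of Cre, had log2 fold changes of 0.64 for Manf and 1.70 for Creld2, neither called. Flox/flox replicate 1 had Cre at 30.0 CPM in Pvalb and 20.4 CPM in Sst, and its Manf levels there were 68.9 and 53.1 CPM, next to 69.5 and 70.7 CPM in flox/flox replicate 2 with no Cre UMI.

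**Figure D5:**
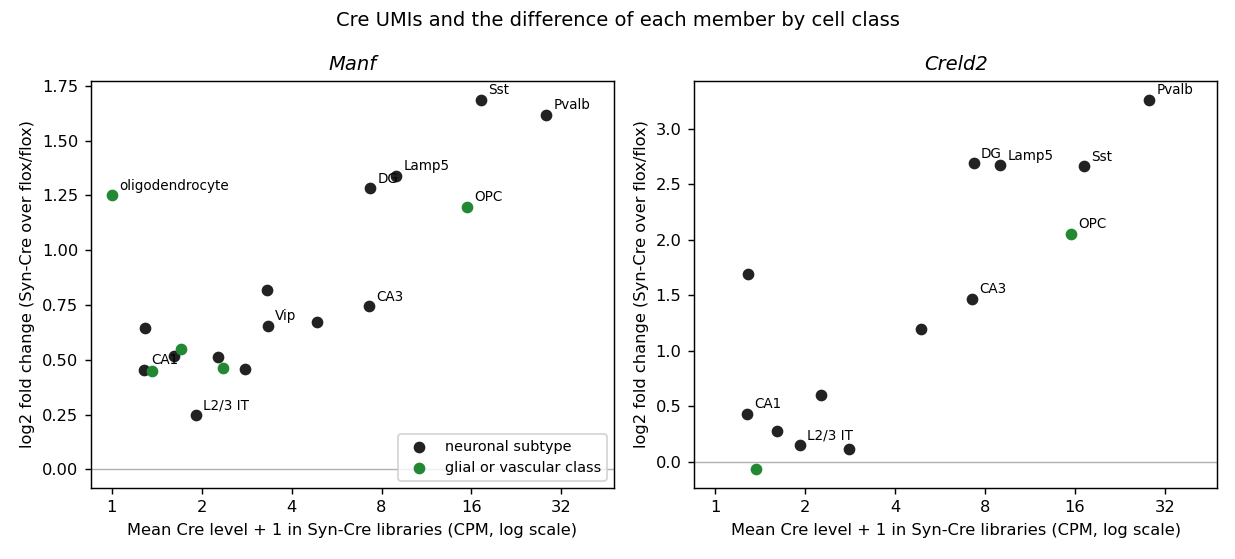
Mean Cre level of the Syn-Cre libraries (CPM + 1, log axis) against the log2 fold change of Manf and Creld2, with 1 point per cell class. Pvalb, Sst, Lamp5 and DG are high on both axes, and oligodendrocytes, with 0 Cre UMIs in the Syn-Cre libraries, have a log2 fold change of Manf of 1.25.

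Among glia, Manf was called higher in oligodendrocytes and in oligodendrocyte precursor-like nuclei (OPC). Oligodendrocytes had 58.3 and 62.5 CPM against 184 and 104 CPM (log2 fold change 1.25 ± 0.24, SE, edgeR adjusted p = 0.0434, where 0.846% of genes were called). OPC had 61.7 and 82.2 CPM against 212 and 115 CPM (1.20 ± 0.21, SE, adjusted p = 5.01e-05, where 8.6% were called). In both classes Syn-Cre replicate 1 was the higher by a wide gap. Without it neither was called (0.76, adjusted p = 0.0853 and 0.68, adjusted p = 0.0761), and without flox/flox replicate 1 OPC was (0.99, adjusted p = 0.000139) and oligodendrocytes were not (1.19, adjusted p = 0.0674). Oligodendrocytes were not called without flox/flox replicate 2 either (1.30, adjusted p = 0.545). Creld2 was called higher in OPC, at 17 and 10 UMIs against 34 and 27, or 7.5 and 5.75 CPM against 30.2 and 26.1 CPM (2.06 ± 0.36, SE, edgeR adjusted p = 5.54e-05). There too flox/flox counts were low, and Creld2 could pass the filter on low counts through the Syn-Cre libraries alone. That call is therefore not independent of the difference itself. Manf was not called in astrocytes (0.45 ± 0.21, SE, adjusted p = 0.421, 1.01% of genes called), in the Inpp5d cluster (0.55 ± 0.20, SE, adjusted p = 0.515, 0.084%) or in endothelial nuclei (0.46 ± 0.38, SE, adjusted p = 0.928). In endothelial nuclei edgeR called 0% of 8398 genes, 495 of which had an unadjusted p under 0.05, and DESeq2 did not call Manf either.

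Markers of other cells moved beside the glial results. All 6 neuron markers of a fixed list were detected in every library of both glial classes, with summed levels of 345 and 255 CPM against 263 and 310 CPM in oligodendrocytes and of 498 and 498 CPM against 491 and 573 CPM in OPC, so that their ranges overlapped between labels. Cre had 32 and 0 UMIs against 20 and 12 in OPC, and 2 and 0 against 0 and 0 in oligodendrocytes. Derl3 had 1 and 3 UMIs against 25 and 13 in OPC and 2 and 2 against 44 and 7 in oligodendrocytes. The 7 myelin genes of an oligodendrocyte list were all called lower in OPC (median log2 fold change -4.13), at summed levels of 3123 and 2389 CPM against 105 and 174 CPM. Other nuclei in the class and other transcription within nuclei cannot be told apart here. The part of these in the glial values of Manf and Creld2 was not tested. Oligodendrocyte nuclei numbered 1847 and 1174 against 357 and 365. In neurons summed levels of the same 7 genes were at most 162 CPM in DG and 94.2 CPM in Sst, both in flox/flox replicate 1. By edgeR they were called lower for 2 of 5 tested in DG, 3 of 7 in L4/5 IT (median log2 fold change -1.81) and 2 of 7 in L6 CT. The counts were 1 of 7 in L2/3 IT, 1 of 3 in Sst, 1 of 4 in Vip and 2 of 7 over all neurons (4 by DESeq2). None was called in the other subtypes, with 0 of 3 in Pvalb and 0 of 2 in Lamp5, and edgeR called none higher. The shares of all genes called are given above. Summed levels were not lower throughout, at 129 and 105 CPM against 181 and 134 CPM in L5/6 IT, and the labels overlapped over all neurons. The part of these 7 genes in the neuronal values of the members was not tested.

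Other genes of the pathway were described by lists that were set with earlier results of these data known. Beside each list, edgeR called 3.47% of all genes in DG, 4.11% in Pvalb, 9.09% in Sst, 0.459% in Lamp5 and 1.7% in L4/5 IT. The shares were 0.154% in L6b, 0.0328% in CA3, 0.00777% in CA1, 0.0268% in Vip, 8.6% in OPC and 0.846% in oligodendrocytes. A gene low in the flox/flox libraries could pass the filter through the Syn-Cre libraries alone, so the number tested is not independent of the difference. The list of ATF6 and XBP1 targets includes Sel1l, the floxed gene, and Derl3, which was chosen from earlier results of these data. Sel1l was at 80.9 and 72.4 CPM (without TMM) against 235 and 192 CPM in DG. In Sst it was at 98.7 and 96.9 against 453 and 322 CPM, and in CA1 at 117 and 108 against 115 and 104 CPM. Whether its 3′ UMIs lie outside the deleted part was not tested. Of the ATF6 and XBP1 targets, 22 of 27 tested were called higher in DG, 24 of 28 in Pvalb, 26 of 28 in Sst, 10 of 26 in Lamp5, 13 of 28 in L4/5 IT, 2 of 21 in L6b, 3 of 26 in CA3, 0 of 26 in CA1 and 0 of 24 in Vip, and none was called lower. Their median log2 fold change was 1.42 in DG, 1.74 in Pvalb, 1.96 in Sst and 0.14 in CA1, where the median of all genes was 0.01 in DG, Pvalb and Sst. The counts were 20 in DG, 23 in Pvalb and 24 in Sst without flox/flox replicate 1. Derl3 went from 3 and 2 UMIs to 247 and 125 in DG, and from 0 and 0 to 190 and 123 in Sst. Fkbp11, an ER prolyl isomerase, went from 0 and 1 UMIs to 32 and 20 in Sst. Sdf2l1, a co-factor of BiP, had log2 fold changes of 3.70 ± 0.38 (SE) in DG and 4.5 ± 0.45 (SE) in Sst. For Hspa5, which encodes BiP, the MANF partner, they were 2.14 ± 0.13 (SE) and 3.24 ± 0.26 (SE), from 28.8 and 27.9 CPM against 135 and 115 CPM in DG.

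Of the KDEL receptors and MANF partners, 2 of 4 tested were called higher in DG and in Sst, Hspa5 and Kdelr2 in each. Kdelr2, a receptor that returns escaped ER proteins from the Golgi, had a log2 fold change of 1.31 in each. Kdelr1 had 0.05 in DG and -0.23 in Sst. Nptn, which encodes neuroplastin, reported as a cell-surface receptor of MANF, had -0.22 and -0.11, and neither gene was called. Of the UPR sensors, Eif2ak3 (PERK) was called higher in DG at 1.63, and Eif2ak3, Atf6 and Ern1 (IRE1) in Sst at 1.08, 1.17 and 0.83, with 4 tested in each subtype.

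Of the ATF4 targets, 6 of 11 tested were called higher in DG, 9 of 16 in Pvalb, 16 of 16 in Sst, 2 of 12 in Lamp5, 8 of 14 in L4/5 IT and 0 of 7 in CA1. Their median log2 fold change was 2.43 in Sst, 1.86 in L4/5 IT and 1.36 in DG. Where every library had to hold at least 10 counts, 10 ATF4 targets were called in Sst. Slc7a11, the cystine transporter, had 4.82 ± 0.28 (SE) in Sst, Trib3, a pseudokinase, 4.04 ± 0.53 (SE) and Cth, of transsulfuration, 3.27 ± 0.58 (SE). Eif4ebp1, a brake on translation, had 3.88 ± 0.64 (SE) in DG. In the glial classes 12 of 13 ATF4 targets and 16 of 26 ATF6 and XBP1 targets were called higher in OPC, and 5 of 9 and 5 of 26 in oligodendrocytes. Leaving out flox/flox replicate 1, 5 ATF4 targets were called in DG, 9 in Pvalb and 12 in Sst. Pvalb had 3 called without Syn-Cre replicate 1 and 14 without flox/flox replicate 2. Of 15 listed neurotrophic factors outside the MANF family, 5 were tested in DG, where Vegfa (1.69 ± 0.31, SE) was called higher, and 7 in Sst, where Bdnf (2.09 ± 0.49, SE), Vegfa (1.30 ± 0.17, SE) and Fgf1 (0.80 ± 0.23, SE) were called higher and Igf1 (-1.14) lower. In OPC 4 of 6 tested were called higher. Of these listed factors DESeq2 called 1 higher in DG, 1 higher and 1 lower in Sst, and 1 higher in OPC.

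The genes whose levels were most like Manf over 76 pseudobulks (19 classes in 4 libraries), among 13652 genes, were Hyou1 (Pearson r = 0.88), Pdia6 (0.86), Derl3 (0.85), Hspa5 (0.85) and Hsp90b1 (0.85). For Creld2 they were Hyou1 (0.84), Pdia6 (0.82), Manf (0.81), Hsp90b1 (0.80) and Dnajb11 (0.80). Beside Manf, these are chaperones, disulfide isomerases or degradation factors of the ER, and the 76 values share libraries and nuclei classes. Both labels are among the 76 values, so the difference between labels enters these correlations, which are not separate from it. For Creld1 the nearest gene was Armcx1 (0.78). Across the 12 subtypes with both values, the log2 fold changes of Manf and Creld2 went together (Pearson r = 0.95, Spearman rho = 0.88), as a description of the same libraries.

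Genes that overlap or adjoin a member were followed because UMIs of overlapping genes may be shared, and whether counting used strand is not given in the sources used here. Dcaf1, which shares 42681 bp with the annotated Manf gene on the other strand, was not called in DG (0.14 ± 0.12, SE, edgeR adjusted p = 0.630), Pvalb (0.21) or Sst (0.38). Rbm15b, on the strand of Manf and within its span, was not called in Sst (0.98 ± 0.41, SE, adjusted p = 0.150) or Pvalb (1.46 ± 0.55, SE), on 9 to 24 UMIs and 6 to 39 UMIs per library. Gm37612, on the other strand within the span of Manf, had 0 to 28 UMIs in any subtype and library. It was called in none of the 3 subtypes in which it was tested, and both Syn-Cre libraries were above both flox/flox libraries in 12 of 14. Over all neurons it had 74 and 57 UMIs against 118 and 148, which edgeR did not call (1.24 ± 0.25, SE, adjusted p = 0.121) and DESeq2 did (adjusted p = 0.0210). The antisense gene 4930524O07Rik had 4 and 7 UMIs against 11 and 12 in DG, not called (1.62 ± 0.57, SE, adjusted p = 0.158), and overlapped between labels over all neurons (0.30). The part of these genes in the values of Manf was not tested. Alg12, which shares the promoter interval shown above, was called higher in DG (85 and 46 UMIs against 106 and 65, log2 fold change 0.99 ± 0.23, SE, edgeR adjusted p = 0.0296). DESeq2 did not call it in DG, and edgeR did not in Pvalb (0.52, adjusted p = 0.489) or Sst (0.66). Hspa14, beside Cdnf, was not called in DG (0.23, adjusted p = 0.559).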

How the data were processed

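The deposited values are raw counts, that is whole UMIs per gene and nucleus, made by the authors with Cell Ranger 6.1.0 on GRCm38 per the submitters' processing notes; whether introns were counted is not given in the sources used here. Nuclei with more than 600 genes and under 5% mitochondrial UMIs were kept, and Scrublet (scanpy 1.11.5) scores removed the expected doublets, 0.8% per 1000 nuclei. Clusters came from Seurat 5.3.0 (2000 variable genes, 17 dimensions, resolution 0.2, then 0.4 for neurons) and were named from at least 3 markers. A cluster of 980 nuclei (median 2544.5 UMIs, leading genes Igfbpl1, Sema3c, Sox11 and Sox4) lay just above the depth limit for naming, set from its libraries' medians at 2530 UMIs, and was counted among all neurons and in no subtype. UMIs were summed per library and class and tested with edgeR 4.0.16 (TMM, filterByExpr, genotype only), with DESeq2 1.42.0 as an alternative, both checked on simulated data. With 2 mice per label, p-values rest on the spread between these libraries, which edgeR moderates over all genes tested. They are no measure of the spread of a single gene between mice. Deviations of libraries with the same replicate number correlated at -0.06 to 0.29 over 20 classes, over 0.1 in 18. Xist tied the number to sex, but with 2 pairs and no shared animal, litter or day in the labels it was not taken as a pairing, and a fit with it as a block was an alternative. The members, lists and tests were chosen with earlier results of these data known. Named list genes are the 4 with the largest fold change among those called in DG or Sst, chiefly in the lists of ATF6 and XBP1 targets, ATF4 targets, UPR sensors, KDEL receptors and MANF partners, and other trophic factors. Motifs were searched in RefSeq promoters (GRCm38.p6) from 250 bases before to 50 after each start. The gene most like Cdnf in level is not reported here.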

Additional observations from a re-analysis of the deposited data

Results flagged for a closer look

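In 2 cases the difference between labels was itself different between 2 subtypes, by edgeR's test of the subtype by genotype term. The log2 fold change in DG exceeded that in CA1 by 0.86 for Manf, which DESeq2 did not call (adjusted p = 0.144), and by 2.27 for Creld2. Both were positive in all 4 fits that left out 1 library, and their adjusted p-values over those fits reached 0.0510 for Manf and 0.28 for Creld2.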

How the results depend on the processing

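The log2 fold change of Manf stayed above 0 in all 14 neuronal subtypes, and that of Creld2 in the 4 subtypes where it was called, under every alternative run. Of all alternative fits of single members in single classes, these included, 612 kept their side of the threshold, 12 gained a call, 18 lost one and 17 changed sign. The cause was not tested. Over all neurons Manf was called with DESeq2 (0.68), without TMM factors (0.73), without a filter (0.67) and with the replicate block (0.69), and Creld2 with the same settings (1.26, 1.32, 1.25 and 1.27). Cdnf was there at 0.0012 without TMM factors. Leaving out the neuron cluster at the depth limit, an alternative chosen after seeing the data, gave 0.69 for Manf and 1.28 for Creld2 and changed no call. The labels do not say whether a replicate number pairs animals of 1 litter, and the number goes with sex in both labels. With the block the subtypes called were 7 for Manf, 6 for Creld2 and 1 for Creld1. Creld1 was called in 0 subtypes by DESeq2 and in 0 without a filter, Creld2 in 2 with at least 10 counts in every library, and Manf in 1 glial class after thinning to the smallest library. For Manf, DESeq2 gave a difference between DG and CA1 of 0.83, which it did not call. Its differences of 1.00 (Sst against Vip) and 0.94 (Pvalb against Vip) are a description with no test. With at least 10 counts in every library, 10 ATF4 targets were called in Sst. Thinning to 4000 UMIs gave ratios of mean shares of 9.70 for Creld2 in DG, 9.47 for Creld2 in Pvalb, 2.58 for Manf in Sst and 2.23 for Manf in Pvalb.

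Uncalled genes changed sign as follows. Creld1 in L4/5 IT was -0.020 with doublets removed at 2 times the rate and -0.036 thinned, Creld2 in L5/6 IT was -0.17 thinned, and Creld1 in endothelial nuclei was -0.089 with DESeq2 and -0.0095 with the block. With 1 library left out, the ranges were -0.0072 to 0.36 for Creld2 in L2/3 IT, -0.027 to 0.074 for Creld1 in L4/5 IT, -0.16 to 0.37 for Creld2 in L5/6 IT, -0.012 to 0.77 for Creld2 in L5 ET, -0.093 to 0.15 for Creld1 in L6 CT and -0.13 to 0.31 in CA1, and for Creld1 in glia -0.32 to 0.77 in OPC, -0.56 to 0.042 in astrocytes, -1.75 to 0.012 in the Inpp5d cluster and -0.75 to 0.45 in endothelial nuclei.

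Leaving out 1 library in turn, a lone library being assumed to vary like the others, gave 4 (without flox/flox replicate 1 or Syn-Cre replicate 1) to 10 (without flox/flox replicate 2) subtypes called for Manf, 3 (without Syn-Cre replicate 2) to 5 for Creld2, 0 for Creld1 in each fit, and 0 to 2 glial classes for Manf. Calls of all genes rose in most subtypes when either flox/flox library was left out, so these counts are no measure of the members alone. Over all neurons, leaving out 1 library gave 0.55 to 0.83 for Manf, 1.064 to 1.45 for Creld2, -0.017 to 0.10 for Creld1 and -0.24 to 0.14 for Cdnf. Differences between subtypes ran from 0.70 to 0.98 (DG against CA1), 0.78 to 1.25 (Sst against Vip) and 0.88 to 1.05 (Pvalb against Vip) for Manf, from 1.77 to 2.60, 1.91 to 3.06 and 2.28 to 4.44 for Creld2, and from -0.14 to 0.50 for Creld1 in DG against CA1. ATF4 targets called ran from 5 to 8 in DG, 11 to 16 in Sst and 3 to 14 in Pvalb. No value could be had for endothelial nuclei with doublets removed at 2 times the rate, with at least 10 counts in every library or after thinning.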
